A study of Mus musculus with 8 samples.

Results

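Low oxygen without tumour cells was compared with tumour cells without low oxygen in BV2 microglia, through 4 of the 8 ATAC-seq libraries of the study. The first pair is the hypoxic monoculture, BV2 cells kept alone below 0.1% oxygen for 16 h. The second is the normoxic co-culture, BV2 cells kept for 16 h at 21% oxygen after being seeded a day earlier onto GL261 cells at 1 BV2 to 2 GL261 cells. BV2 is an immortalised mouse microglial line and GL261 a mouse glioma line, so neither pair holds primary microglia or a tumour. Each group had 2 biological replicates, and the groups differed in oxygen and in culture at once, so a difference between them is hypoxia alone against contact alone and not the effect of either. The other 4 libraries, hypoxic co-culture and normoxic monoculture with 2 replicates each, took no part in choosing regions and served as an outside readout. Per the labels' protocols, cells were fixed with formaldehyde in the chamber and sorted as CD45+ or GFP+ cells, without a statement of which marker served for which library, and 50000 cells per library were treated with Tn5.

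ATAC-seq marks open chromatin because the Tn5 transposase inserts adapters where nucleosomes leave DNA exposed, which happens mainly at gene start sites and at enhancers farther away. In low oxygen the subunit HIF-1α escapes the prolyl hydroxylases that mark it for destruction, and HIF then binds an ACGTG core near genes of glycolysis, glucose uptake, mitophagy and angiogenesis. Microglia near glioma take on programmes of adhesion, matrix turnover and immune modulation, driven in part by TGF-β, osteopontin (Spp1) and colony-stimulating factors.

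Merging overlapping peaks of the 4 lists on chromosomes 1 to 19 and X left 35847 regions. Of these, 13248 (37.0%) were called in all 4 lists, 4572 in 3, 7034 in 2 and 10993 in 1. Called in both hypoxic monoculture lists and in neither normoxic co-culture list were 3307 regions (9.23% of all regions), the hypoxia-only set. Called in both normoxic co-culture lists and in neither hypoxic monoculture list were 1740 regions (4.85%), the contact-only set. At the 13248 shared regions each library's best peak was ranked by the deposited −log10 p within its own list, as a percentile. The lower hypoxic percentile exceeded the higher co-culture percentile by at least 20 points at 718 shared regions (5.42% of shared regions), and the reverse held at 627 (4.73%). These are called hypoxia-higher and contact-higher. The rule decides which regions enter these 4 sets, so the sets' counts and their percentiles in the 4 libraries are descriptions without a test. The gap was 20.0017 points at the last hypoxia-higher region kept and 19.9967 at the first one left out, and 20.0174 against 19.999 points for contact-higher.

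Single start sites from each set are shown first as examples, because the sets differed in how often they held a start site. Inpp5k, Slfn8 and Atg101 lead the protein-coding start sites of their sets by rank or gap, Top2a and Ppm1h come next after the leader of theirs, and Egln3 is shown as a HIF target named whatever its gap (26.7 points). They need not be typical of their sets in base composition or motifs: the Inpp5k stretch has 67.6% GC and 23 CpG, above its set's mean GC of 54.0% and median of 8 CpG, and that of Top2a has 43.6% and 9, below its set's 61.7% and 22 (set values are over longer windows that also hold the first bases after the start). Each line is the 250 bases before the RefSeq start site (GRCm38.p6), written 5′ to 3′ on the gene's strand. Capitals mark the HIF core ACGTG and its relative GCGTG, the CCAAT box, and the GC box GGGCGG, each on either strand. Inpp5k (chr11:75630770-75631019, strand +) is a start site of the hypoxia-only set, and Slfn8 (chr11:83020723-83020972, strand -) and Egln3 (chr12:54203875-54204124, strand -) are hypoxia-higher. Top2a (chr11:99024190-99024439, strand -) is contact-only, and Atg101 (chr15:101284051-101284300, strand +) and Ppm1h (chr10:122678512-122678761, strand +) are contact-higher.
Inpp5k: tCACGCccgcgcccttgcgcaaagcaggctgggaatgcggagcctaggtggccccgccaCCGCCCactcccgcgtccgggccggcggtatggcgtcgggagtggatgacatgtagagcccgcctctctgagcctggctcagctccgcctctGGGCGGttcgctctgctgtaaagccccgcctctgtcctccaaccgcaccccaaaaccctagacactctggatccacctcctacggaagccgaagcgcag
Slfn8: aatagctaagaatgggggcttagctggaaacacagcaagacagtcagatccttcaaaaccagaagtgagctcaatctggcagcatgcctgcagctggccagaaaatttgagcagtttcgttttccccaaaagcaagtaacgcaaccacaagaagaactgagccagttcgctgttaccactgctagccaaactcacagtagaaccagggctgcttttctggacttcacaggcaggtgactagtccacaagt
Egln3: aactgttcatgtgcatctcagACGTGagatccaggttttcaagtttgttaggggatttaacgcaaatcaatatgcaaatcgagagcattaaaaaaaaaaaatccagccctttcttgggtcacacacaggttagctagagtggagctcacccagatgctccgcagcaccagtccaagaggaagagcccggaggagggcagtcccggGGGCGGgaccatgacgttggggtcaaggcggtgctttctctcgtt
Top2a: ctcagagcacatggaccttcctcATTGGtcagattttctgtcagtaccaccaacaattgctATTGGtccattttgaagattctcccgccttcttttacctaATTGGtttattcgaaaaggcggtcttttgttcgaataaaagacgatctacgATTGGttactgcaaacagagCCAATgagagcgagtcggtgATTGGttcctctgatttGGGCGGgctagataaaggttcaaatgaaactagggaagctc
Atg101: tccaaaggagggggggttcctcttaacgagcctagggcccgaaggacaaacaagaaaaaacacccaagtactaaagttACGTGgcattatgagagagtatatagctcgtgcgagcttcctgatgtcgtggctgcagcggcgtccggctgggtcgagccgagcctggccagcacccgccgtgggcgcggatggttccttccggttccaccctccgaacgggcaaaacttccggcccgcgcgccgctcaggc
Ppm1h: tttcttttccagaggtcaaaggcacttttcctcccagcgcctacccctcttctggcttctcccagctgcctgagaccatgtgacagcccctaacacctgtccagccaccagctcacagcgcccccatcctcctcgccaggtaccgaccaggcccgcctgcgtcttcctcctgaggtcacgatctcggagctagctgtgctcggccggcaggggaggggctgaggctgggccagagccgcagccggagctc

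Inpp5k, an inositol phosphatase gene, ranked at percentiles 72.8 and 72.4 in hypoxic monoculture and had no peak in normoxic co-culture. Egln3, which encodes an oxygen-sensing prolyl hydroxylase that HIF itself induces, stood at 65.2 and 61.9 against 26.4 and 35.2 in co-culture, and its stretch holds 1 ACGTG. Slfn8, a Schlafen family gene, stood at 62.5 and 54.4 against 10.2 and 11.98. In the other direction Top2a, the topoisomerase of dividing cells, was at 79.0 and 79.6 in co-culture with no hypoxic peak, and its stretch holds CCAAT 6 times. The contact-only start site ranked above it, that of Bod1 (83.0 and 82.3), holds 0 of the marked motifs in the same stretch. Atg101, a subunit of the complex that starts autophagy, stood at 62.8 and 66.5 in co-culture against 5.45 and 7.64, and the phosphatase gene Ppm1h at 65.3 and 68.9 against 11.5 and 9.76. In each of these 4 shared regions both libraries of one group lay above both of the other by more than 20 points, which is what put them in their sets.

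The lists themselves set the scale. Hypoxic monoculture had 24365 and 26333 peaks and normoxic co-culture 21780 and 21816, a difference of 3551 peaks between the means (two-sided exact permutation test, p = 0.333, the smallest that 2 libraries against 2 can give, so no such contrast could reach 0.05). Read totals were not used here, and the background coverage solved from the lists was 1.45 and 1.41 fragments per position in hypoxic monoculture and 1.07 and 1.38 in co-culture. A typical summit held 27 and 29 fragments in hypoxic monoculture and 24 and 26 in co-culture (medians). Lists thinned to equal coverage gave 3270 hypoxia-only and 1736 contact-only regions, while lists of equal number gave 2615 and 2283, a much smaller excess. The order of the hypoxia-higher and contact-higher counts turned in lists of equal number, with 498 and 1005. It also turned without hypoxic monoculture replicate 1 (1320 and 1372) and without its replicate 2 (1090 and 1438). Replicates overlapped more than libraries of different groups (Jaccard index over covered bases 0.532 and 0.486 within groups, 0.415 to 0.478 across, one-sided exact permutation test, p = 0.333, also the smallest possible). At shared regions the percentiles of replicates differed by a median of 7.14 points in hypoxic monoculture and 7.93 in co-culture, and those of libraries across groups by 11.0 to 12.8 points.

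The regions called in hypoxic monoculture alone lay mostly away from start sites, and those called in co-culture alone often lay on them. A start site counted when its base, as RefSeq lists it, lay inside the region. Start bases were taken from windows that run from 250 bases before the start to 50 after it. These windows exist for 79.9% of protein-coding genes and for none on chromosome 18, so a region at an unlisted start counts as elsewhere. Of all regions 21.7% held a start site, and of shared regions 39.6%. The share was 2.90% of hypoxia-only regions (93 of 3209) and 26.3% of contact-only regions (435 of 1655). Among shared regions the contrast was wider, with 4.94% of hypoxia-higher regions (35 of 708) and 67.5% of contact-higher regions (408 of 604). Position had no part in the rule. Every one of the 4 libraries entered the rule, so these shares have no replicates of their own, and they moved with the library left out: without 1 of the 4 the hypoxia-only share ran from 2.44% to 5.86% and the contact-only share from 14.9% to 31.5%.

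**Figure D1:**
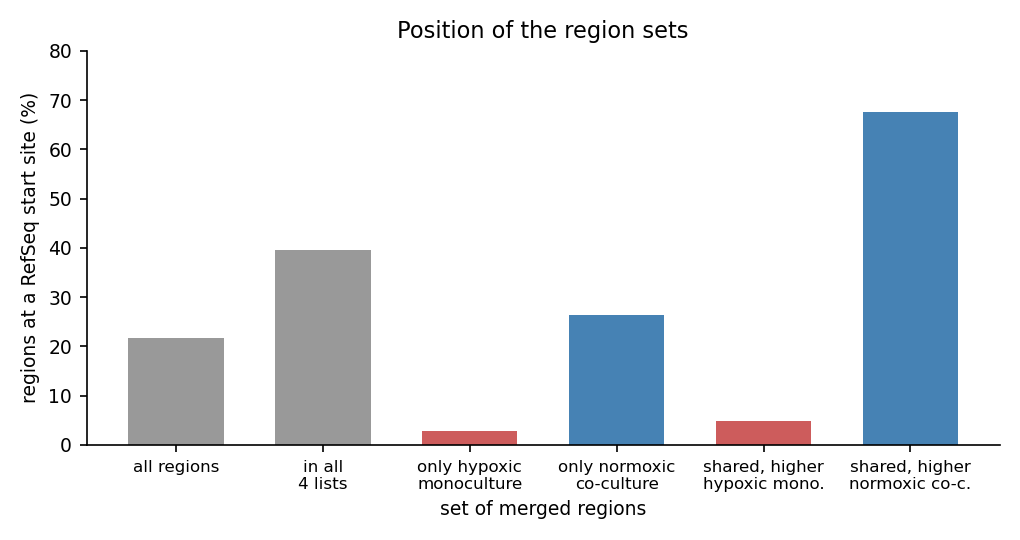
Share of merged regions that hold a RefSeq start site (y axis, percent) for all regions, the shared regions and the 4 sets (x axis), without chromosome 18. The contact-higher set reaches 67.5% and the hypoxia-only set 2.90%, with all regions at 21.7%.

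The same contrast appeared in distances. The median distance to the nearest listed start site was 23.2 kb for hypoxia-only regions and 11.3 kb for contact-only regions, against 13.7 kb for all regions. It was 21.1 kb for hypoxia-higher regions and 0 for contact-higher regions, since 67.5% of them contain one. Regions over 50 kb from a start made up 29.1% of the hypoxia-only set and 20.2% of the contact-only set, against 21.1% of all regions. Lying within 1 kb of either end of a RefSeq gene of any type is a measure that needs no listed start. It held for 12.4% of hypoxia-only, 37.8% of contact-only, 13.9% of hypoxia-higher and 81.0% of contact-higher regions. The shares were 32.0% of all regions and 49.4% of shared regions. Where the hypoxia-only set did hold a start site, a protein-coding gene was among the genes starting there in 66 of 93 regions, against 403 of 435 in the contact-only set. Non-coding genes alone accounted for the remaining 27 and 32 regions.

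Each library on its own gave the same order. Of the peaks in hypoxic monoculture, 23.8% and 22.3% held a start site, against 29.3% and 31.5% in normoxic co-culture, a difference of −7.30 percentage points (two-sided exact permutation test, p = 0.333, larger than the pooled SD of 1.34 points, n = 2 per group). Among the fifth of each list with the highest −log10 p the shares were 37.6% and 33.9% in hypoxic monoculture against 51.1% and 58.5% in co-culture. With the peaks moved by 10 kb, between 1.21% and 1.84% held a start site in any of the 8 lists. The 2 groups did not overlap in either measure. Within 1 kb of either end of a RefSeq gene of any type lay 35.5% and 33.5% of the peaks in hypoxic monoculture. In normoxic co-culture these shares were 41.0% and 42.9%, a difference of −7.42 points (exact permutation test, p = 0.333). Hypoxic co-culture gave 24.6% and 31.5% of all peaks and normoxic monoculture 30.0% and 33.4%, so over whole lists neither outside group sat apart from normoxic co-culture in both libraries.

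Ranks at the shared regions separated the cultures more plainly. In hypoxic monoculture the median percentile of the 5095 start-site regions minus that of the 7777 other regions was 1.66 points in replicate 1 and −2.12 points in replicate 2. In normoxic co-culture start sites stood 14.1 and 20.4 points above the rest. The difference between the groups was −17.5 points (two-sided exact permutation test, p = 0.333, pooled SD 3.67, n = 2 per group). In the libraries outside the comparison, over those of the same regions that had a peak, the advantage of start sites was 13.5 and 22.4 points in hypoxic co-culture and 7.25 and 8.49 in normoxic monoculture. All 4 co-culture libraries thus lay above all 4 monoculture libraries, by 13.8 points on average. The regions were drawn from 4 of these 8 libraries, so this is given without a test. Background coverage ranged from 1.07 to 1.42 fragments per position in the co-culture libraries and from 0.758 to 1.45 in the monoculture libraries, and its part in the difference was not tested.

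**Figure D2:**
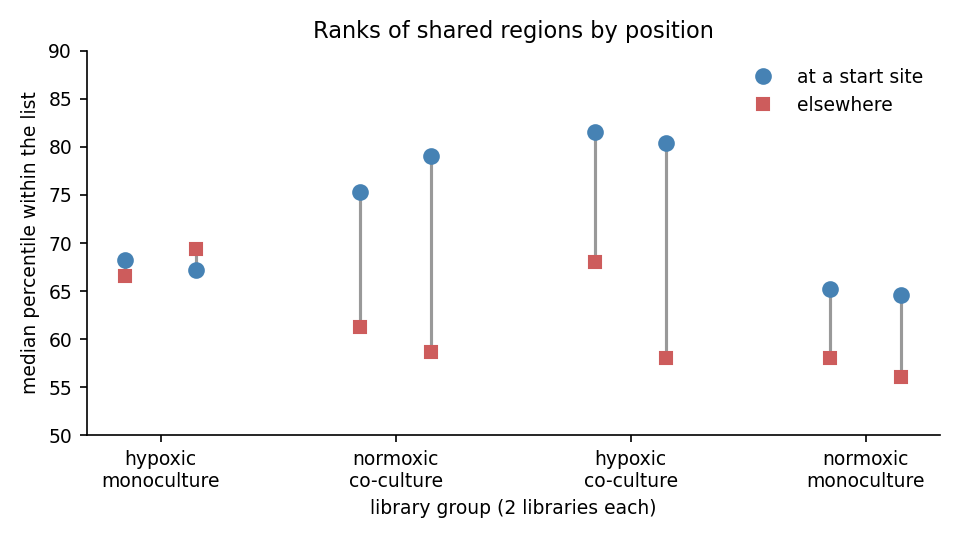
Median within-list percentile (y axis) of the 5095 shared regions at a start site (circles) and the 7777 elsewhere (squares) in each of the 8 libraries (x axis, 2 per group), joined by a line per library; regions without a peak in an outside library are left out there. The distance between the symbols is 1.66 and −2.12 points in hypoxic monoculture and 14.1 and 20.4 points in normoxic co-culture.

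Start-site sequence differed between the sets along with position. Windows of 300 bases at start sites in the hypoxia-only set (107 windows) had a mean GC content of 54.0% and a median of 8 CpG, near the 53.9% and 7 of all 32619 windows. The contact-only windows (529) had 61.7% and 22, and the windows of all shared regions 61.3% and 22. For hypoxia-higher windows (44) the values were 53.4% and 8, and for contact-higher windows (579) 62.3% and 25. The contact-only and contact-higher windows thus held as many CpG as those of shared regions or more, and the hypoxia-only and hypoxia-higher windows fewer.

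Short motifs were searched on both strands of these windows, and a match is a run of letters and not a bound site. The HIF core ACGTG stood in 38.3% of hypoxia-only, 26.3% of contact-only, 18.2% of hypoxia-higher and 30.9% of contact-higher windows, against 19.8% of all windows and 28.4% of those in shared regions. CACGTG, which contains that core, stood in 17.8% of hypoxia-only, 9.83% of contact-only, 6.82% of hypoxia-higher and 10.5% of contact-higher windows, against 7.20% of all and 10.4% of shared-region windows. GCGTG stood in 37.4%, 52.6%, 43.2% and 58.7% of the 4 sets in that order, against 32.6% of all and 55.6% of shared-region windows. The ACGTG and GCGTG shares thus put the sets in different orders. TGANTCA, the AP-1 letters, stood in 15.9% of hypoxia-only and 20.5% of hypoxia-higher windows, against 5.29% of contact-only, 4.15% of contact-higher, 7.85% of all and 5.25% of shared-region windows. The GC box GGGCGG stood in 39.3% of hypoxia-only, 63.9% of contact-only, 36.4% of hypoxia-higher and 64.9% of contact-higher windows, against 35.9% of all and 67.7% of shared-region windows. CCAAT was in 36.4%, 31.9%, 25.0% and 32.8% of the 4 sets in that order, all below the 37.6% of all and 43.5% of shared-region windows. The hypoxia-only and hypoxia-higher counts rest on 107 and 44 windows, some of which belong to the same region, and the motif shares were not tested.

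The outside libraries showed how far each set extends beyond the pair that defined it. Hypoxia-only regions were called in 65.9% and 36.7% of cases in the hypoxic co-culture lists and in 11.3% and 5.59% in normoxic monoculture. Contact-only regions were called in 73.4% and 58.0% in hypoxic co-culture and in 9.89% and 5.11% in normoxic monoculture. Over all merged regions the shares were 69.7% and 54.5% in hypoxic co-culture and 34.4% and 26.5% in normoxic monoculture. In replicate 1 of hypoxic co-culture the sets thus lay about equally far to either side of the value for all regions, and in replicate 2 the hypoxia-only set lay well below it. In normoxic monoculture both sets were below it.

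**Figure D3:**
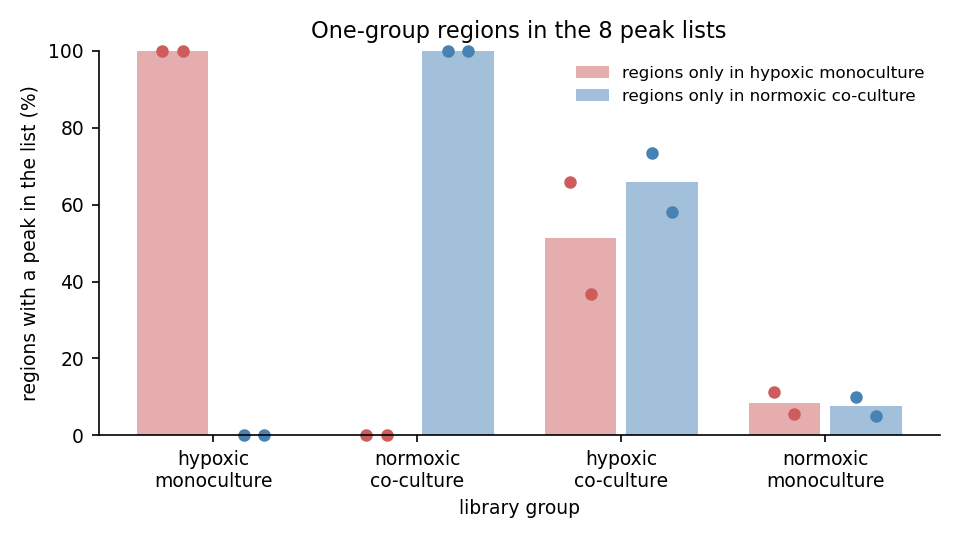
Percentage of the hypoxia-only (red) and contact-only (blue) regions with a peak in each list (y axis) by library group (x axis); points are the 2 libraries and bars their mean. The values of 100 and 0 in the 2 groups on the left follow from the rule, and the groups on the right were not used in it.

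Per library, the hypoxia-only share minus the contact-only share was −7.53 and −21.4 points in hypoxic co-culture and 1.45 and 0.479 points in normoxic monoculture, a difference of −15.4 points (two-sided exact permutation test, p = 0.333, pooled SD 6.94, n = 2 per group). It was −8.49 points without replicate 2 of hypoxic co-culture and −22.3 points without replicate 1. This direction changed with the lists used. With each of the 8 lists kept to its 9903 highest-ranked peaks the difference was 11.4 points in the opposite direction (exact permutation p = 1). Regions called in both hypoxic co-culture lists and in neither normoxic monoculture list were 853 of the hypoxia-only set (25.8%) and 813 of the contact-only set (46.7%), against 19.3% of all regions. Regions called in none of the 4 outside libraries were 839 (25.4%) and 315 (18.1%), near the 23.1% of all regions. Start sites and other regions of a set were carried over to different extents: in hypoxic co-culture 81.8% and 69.4% of contact-only start sites were called against 69.9% and 53.2% of contact-only regions elsewhere. For the hypoxia-only set these values were 81.7% and 58.1% of 93 start sites against 65.3% and 35.8% elsewhere. The same shares over all merged regions by position are not given here, so the contrast is not read as particular to the sets. Start sites were also more frequent among regions called in all 4 compared lists (39.6%) than among all regions (21.7%).

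The outside ranks at shared regions depended on the set and the position. Hypoxia-higher regions away from start sites had median percentiles of 75.5 and 78.4 in hypoxic monoculture and 36.1 and 34.9 in normoxic co-culture, with 65.6 and 51.5 in hypoxic co-culture and 46.6 and 39.3 in normoxic monoculture. Contact-higher start sites had 29.3 and 32.4 in hypoxic monoculture and 70.0 and 75.3 in normoxic co-culture, with 61.3 and 64.4 in hypoxic co-culture and 44.0 and 42.7 in normoxic monoculture. The first 4 values of each set follow from the rule. At the 35 hypoxia-higher start sites the medians in normoxic monoculture were 27.0 and 24.6, below the 29.4 and 35.2 of normoxic co-culture. The outside values placed hypoxic co-culture above normoxic monoculture in all of these. The same order held over all shared regions (73.0 and 67.6 against 60.9 and 59.1) and all shared start sites (81.5 and 80.4 against 65.3 and 64.6). It is thus not particular to the sets. The normoxic monoculture medians were taken over fewer regions. There 56.7% and 45.0% of hypoxia-higher and 75.3% and 55.8% of contact-higher regions had a peak, against 72.4% and 58.9% of all shared regions.

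The 8 regions with the highest minimum percentile in each one-group set lay away from listed start sites, as inside genes or between them. The first (chr8:75262258-75262924) lay between genes, 38.1 kb from Rasd2, which encodes a small GTPase, and ranked at 98.1 and 99.0 in hypoxic monoculture, 92.5 and 83.1 in hypoxic co-culture, 82.6 in 1 normoxic monoculture list and nowhere in normoxic co-culture. A region inside the potassium channel subunit gene Kcnab2 (chr4:152410935-152411562) ranked at 98.4 and 95.5, with 95.6 and 83.8 in hypoxic co-culture. Both therefore stood above percentile 80 in every hypoxic list and were absent from both normoxic co-culture lists.

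A region inside the signalling ligand gene Wnt6 (chr1:74772951-74773594), 1.06 kb from its start, ranked at 95.1 and 95.9 with 96.6 and 96.4 in hypoxic co-culture and 79.97 in 1 normoxic monoculture list. Ptgs2, the inducible cyclooxygenase of inflammation, had a region 35.3 kb away (chr1:150143583-150144071) at 93.7 and 95.7, with 83.2 in 1 hypoxic co-culture list and 62.2 in 1 normoxic monoculture list. The other 4 lay inside 1700011L22Rik and Ptprn2 and at 12.6 kb from Tmem131l and 227 kb from Kctd12, the last with a peak in 1 normoxic monoculture list at 68.6. In all, 114 of the 3307 hypoxia-only regions (3.45%) and 11 of the 1740 contact-only regions (0.632%) ranked at 80 or above in both of their libraries. Of all regions called in both lists of a group the shares were 20.5% in hypoxic monoculture and 20.4% in normoxic co-culture, so high ranks were rare in both sets.

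The contact-only set was led by a region inside Ppm1h (chr10:122862182-122862883) at 92.7 and 91.4 in normoxic co-culture and 89.9 and 83.7 in hypoxic co-culture. It lay 33.9 kb from a listed start and is a different region from the Ppm1h start site printed above, which was contact-higher. The next were inside Ryk, a Wnt receptor (chr9:102860051-102860434, 86.7 and 86.6), and inside Slc2a3 (chr6:122758677-122759234, 89.4 and 85.8), the gene of the glucose transporter GLUT3. Each of these had a peak in 1 hypoxic co-culture list, at 90.1 for Ryk and 95.8 for Slc2a3, and Ryk also in 1 normoxic monoculture list at 60.6.

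Regions in Lbh, a transcriptional regulator gene (89.5 and 85.1), in Myo5b, a myosin motor gene (89.0 and 84.9), in Pdzd2 (95.6 and 84.4), in Ddc, the dopa decarboxylase gene (88.1 and 83.6), and near Car8 (90.5 and 85.0, inside Gm42252) completed the 8. All 5 were called in both hypoxic co-culture lists and in no normoxic monoculture list.

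Among hypoxia-higher regions with the widest gaps, one 4.70 kb from Itgb1 (chr8:128679822-128680951), which encodes the β1 integrin chain, stood at 86.5 and 89.0 in hypoxic monoculture against 26.0 and 31.3 in normoxic co-culture, and here hypoxic co-culture resembled the normoxic one, at 33.8 and 10.8, while normoxic monoculture ranked it at 69.9 and 41.4. Both monoculture groups thus ranked the Itgb1 region above both co-culture groups. The glutamate transporter gene Slc1a2 held a region (chr2:102760054-102760876) at 82.9 and 71.6 against 17.0 and 12.4, and others lay inside Baz2b and near Tacc1.

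In the contact-higher direction a region inside Camk2b, a calcium/calmodulin kinase gene (chr11:6005933-6007559), led with 12.6 and 6.35 in hypoxic monoculture against 92.6 and 85.7 in co-culture and a gap of 73.1 points. Next was a region 9.76 kb from the chemokine gene Ccl25 (chr8:4369777-4370429) with 10.2 and 3.42 against 86.4 and 82.5. Both ranked high in hypoxic co-culture too, at 88.2 and 84.2 for Camk2b and 88.6 and 75.3 for Ccl25. Wac, an autophagy and cell cycle regulator gene, and the start sites of Atg101 and Ppm1h followed. Atg101 behaved otherwise outside the comparison: its start site stood at 50.5 and 67.9 in normoxic monoculture and at 45.0 and 67.8 in hypoxic co-culture, so hypoxic monoculture was the low group there.

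The genes that HIF induces were split between the sets. Of 47 genes in the list, 8 had a hypoxia-only region inside or within 10 kb and 7 a contact-only region, while 3 had a hypoxia-higher and 8 a contact-higher region. Over all 21631 protein-coding genes the shares were 10.1%, 7.59%, 2.47% and 4.24%, which for this list compare with 17.0%, 14.9%, 6.38% and 17.0%. The list genes often have several regions, and no test was made of these shares.

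None of the hypoxia-only regions near HIF targets lay at a listed start site. Near Hmox1, the heme oxygenase gene, a region 7.16 kb away (chr8:75085894-75086453) ranked at 85.1 and 76.5. Pfkp, a phosphofructokinase gene, held one at 57.7 and 69.3, and Slc2a1, the GLUT1 gene, had one 2.66 kb away at 73.8 and 48.1. Bnip3, a mitophagy receptor gene, held one at 50.3 and 45.0 that no outside list called, and Bnip3l, Ero1a, Kdm4b and Pdk1 had weaker ones. Of the hypoxia-higher regions, one lay 2.51 kb from Ldha, the lactate dehydrogenase gene (77.8 and 85.7 against 55.0 and 44.4), one 8.40 kb from the hexokinase gene Hk2 (71.7 and 83.7 against 43.3 and 16.1), and one at the Egln3 start site printed above.

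The contact-only regions included the Slc2a3 region named above, a start site of the glycolytic enzyme gene Tpi1 at 32.0 and 30.6, and a second region 9.52 kb from Hmox1 at 43.6 and 49.8. Contact-higher regions sat at the start sites of Jmjd6 (32.0 and 45.9 against 80.4 and 79.5), Higd1a (51.2 and 52.8 against 77.6 and 88.4), Aldoa (42.4 and 51.0 against 79.1 and 76.2), Ero1a (50.3 and 35.3 against 82.9 and 74.5) and Ddit4 (38.8 and 39.6 against 73.1 and 74.0). These encode an oxygenase, a mitochondrial hypoxia protein, aldolase A, an oxidase of the endoplasmic reticulum and an inhibitor of mTORC1. A region overlapping the annotated beginning of Hmox1 stood at 43.8 and 43.2 against 85.0 and 77.7. Hmox1 thus had a hypoxia-only, a contact-only and a contact-higher region within 10 kb.

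**Figure D4:**
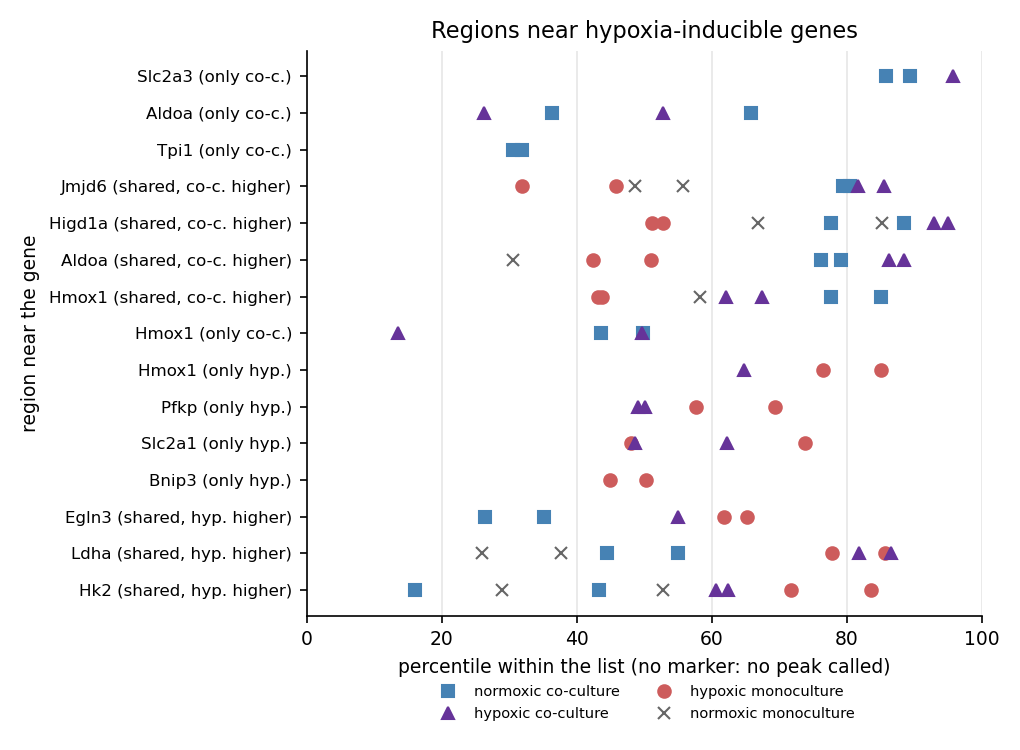
Within-list percentile (x axis) of the regions near HIF-induced genes chosen by the naming rule (y axis, up to 4 genes per set) in each library: red circles hypoxic monoculture, blue squares normoxic co-culture, triangles hypoxic co-culture, crosses normoxic monoculture, and no symbol where no peak was called. Egln3, Ldha and Hk2 rank higher in hypoxic monoculture, and Jmjd6, Higd1a, Aldoa and Hmox1 in normoxic co-culture.

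Start sites of the HIF targets were then read one by one, counting only peaks that cover the start base itself. Of 37 such genes 23 had a start-site peak in all 4 lists. Both hypoxic percentiles exceeded both co-culture percentiles at 7 of the 23 (30.4%) and the reverse held at 11 (47.8%). Over the 4678 protein-coding genes with such peaks in all 4 lists the shares were 10.6% and 46.7%. The 7 were Pdk1, Aldoc, Hk1, Pfkp, Pfkfb4, Bnip3 and Egln3. Pdk1, whose kinase product keeps pyruvate from the mitochondria, stood at 82.3 and 83.9 in hypoxic monoculture, 52.2 and 70.6 in normoxic co-culture and 97.0 and 94.1 in hypoxic co-culture, with no peak in normoxic monoculture. The aldolase gene Aldoc stood at 78.6 and 72.1 against 69.0 and 54.1. Bnip3 and Pfkfb4 were at or above 98.6 in all 4 lists, so their order is a matter of under 1 point.

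The 11 with the reverse order included Slc2a1 (56.6 and 63.9 against 82.5 and 80.8), Kdm3a, a histone demethylase gene (82.4 and 84.7 against 93.9 and 94.5), and Hif1a itself (71.6 and 71.8 against 81.5 and 89.7). Hypoxic co-culture ranked all 3 high, at 88.3 and 88.2, 95.4 and 95.0, and 91.9 and 91.3. Vegfa, the angiogenic factor gene, belonged to no set: its start-site region (chr17:46031911-46032864) had percentiles of 29.5 and 38.9 in hypoxic monoculture and of 19.5 in 1 of the 2 co-culture lists, and of 47.0 and 54.1 in hypoxic co-culture. Adm, Car9, P4ha2, Slc16a3 and Hif3a had no start-site peak in any of the 8 lists, which is absence at this depth and threshold.

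Adhesion, matrix and cytoskeleton genes had hypoxia-only regions most often of the 9 lists, at 10 of 25 genes (40.0%), beside contact-only regions at 4, hypoxia-higher at 2 and contact-higher at 3. The shares over all protein-coding genes were 10.1%, 7.59%, 2.47% and 4.24%, and the genes of this list had a median of 3 regions within 10 kb against 1 for all protein-coding genes. The 10 were Arhgap18, Tln1, Itgav, Itga4, Cd44, Col4a1, Plaur, Itgb5, Plau and Thbs1. Arhgap18, a GTPase-activating protein gene, held a region at 67.7 and 65.5, and Tln1, which links integrins to actin, one at 47.9 and 59.8. The integrin genes Itgav and Itga4 held regions at 48.7 and 45.8 and at 57.1 and 44.2. None of the 10 was at a listed start site.

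Start sites of some of these genes ranked higher in co-culture. Cd44, the hyaluronan receptor gene, had its start site at 45.9 and 31.7 in hypoxic monoculture against 73.7 and 80.6 in co-culture, and Itgav at 30.6 and 21.3 against 55.4 and 69.9. A start site of Flna (filamin A) and one beside Thbs1 (thrombospondin) were contact-only, at 39.5 and 50.5 and at 41.1 and 52.8. Of the 9 adhesion start sites with a peak in all 4 lists, co-culture ranked 6 higher in both libraries (66.7%) and hypoxic monoculture 0, against 46.7% and 10.6% of all protein-coding start sites. Arhgap18 differed, with its start site at 67.2 and 68.5 in hypoxic monoculture against 53.9 and no peak in co-culture, and Tln1 was mixed, at 52.3 and 26.3 against 43.5 and 78.8. Cd44 and Itgav each carried an internal region of the hypoxia-only set and a contact-higher start site. In hypoxic co-culture the Cd44 start site stood at 74.5 and 68.2, and that of Itgav at 36.2 and 4.47, so for Itgav the higher rank of normoxic co-culture was not seen there.

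Genes of tumour-associated macrophages had hypoxia-only regions at 6 of 26 (23.1%) and contact-only regions at 2 (7.69%), against 10.1% and 7.59% of all protein-coding genes. Their median was 2 regions per gene. A region 2.84 kb from Tgfbr2, the TGF-β receptor gene, ranked at 81.0 and 89.0, one inside the receptor kinase gene Axl at 70.3 and 76.6, and one 0.845 kb from Il10 at 63.0 and 67.3. Clec7a (dectin-1) had its start site at 42.7 and 72.0, and Spp1 and Cd9 had regions under the 10th percentile. The contact-only regions lay near Mmp14 and in Mertk and ranked no higher than 39.9. The lipase gene Lpl held a hypoxia-higher region at 80.8 and 77.7 against 52.6 and 56.8.

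Of 26 interferon and antigen presentation genes 5 had a hypoxia-only region (19.2%), among them Ifit2, Cd74, Cd80 and Cd86, and 0 had a contact-only region, against 10.1% and 7.59% of all protein-coding genes. The highest was in Ifit2, an interferon-induced gene, at 71.4 and 66.7. Its start site was contact-higher at 41.5 and 40.6 against 67.8 and 74.5. Among 27 genes of AP-1 and NF-κB inflammation 4 had hypoxia-only and 4 contact-only regions (14.8% each), with Junb and Fos in both. The Fos start site and that of Tnfaip3, an inhibitor of NF-κB, were contact-only at 26.4 and 49.4 and at 43.4 and 48.5, whereas the start site of the inflammasome sensor gene Nlrp3 was hypoxia-only at 49.6 and 38.2. A region 7.89 kb from Nfkbia, which encodes IκBα, was hypoxia-higher at 93.2 and 95.1 against 53.0 and 35.4. Of 17 stress response genes 2 had hypoxia-only regions (11.8%), near Atf3 and Herpud1, and 1 a contact-only region (5.88%), near Hspa1b, with 33.8 the highest percentile among them.

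Identity markers were read in every list. Of 24 microglia and macrophage genes 2 had a hypoxia-only region, 1 a contact-only, 1 a hypoxia-higher and 2 a contact-higher region, or 8.33%, 4.17%, 4.17% and 8.33%, against 10.1%, 7.59%, 2.47% and 4.24% of all protein-coding genes. Ptprc, the CD45 gene, had a start-site peak in all 4 lists (37.8 and 51.7 against 67.5 and 63.6) and 2 hypoxia-only regions inside it, the higher at 74.5 and 76.7. Of 16 microglia and macrophage genes with a listed start, 8 and 8 had a start-site peak in hypoxic monoculture and 7 and 7 in normoxic co-culture. Over all protein-coding start sites the shares were 33.2% and 33.4% against 36.6% and 39.7%. P2ry12, Sall1, Siglech, Aif1 and Itgam were among those with no start-site peak in any of the 8 lists. Within 10 kb, P2ry12 still had 3 regions called in all 4 compared lists and Siglech and Aif1 1 each, while Sall1 and Itgam had 0. The microglial receptor gene Cx3cr1 held a hypoxia-only region at 41.4 and 27.0, and Tmem119, a marker of resident microglia, a contact-only one at 38.7 and 21.0. A region of Runx1, a myeloid transcription factor gene, was contact-higher at 26.0 and 35.2 against 78.7 and 76.3. Spi1, which encodes PU.1, had 1 shared region at 54.3 and 34.1 against 38.6 and 17.1.

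Of 18 glioma and glial genes with a listed start, 0 and 0 had a start-site peak in hypoxic monoculture, 3 and 1 in normoxic co-culture, 3 and 2 in hypoxic co-culture and 0 and 0 in normoxic monoculture. Those in normoxic co-culture were Pou3f2 (33.8 and 50.3), a neural transcription factor gene whose start site is contact-only, and Sox2 (22.7) and Nes (15.7) in replicate 1. Olig2, Gfap, Pdgfra and Egfr had none in any list. Of 6 mesenchymal genes 0 had a start-site peak in any list, and in the whole mesenchymal list 2 of 11 genes, Cdh2 and Prrx1, had a contact-only region (18.2%) and 0 a hypoxia-only region. In the whole glial list 2 of 22 genes had a contact-only region (9.09%) and 3 a hypoxia-only region (13.6%), against 7.59% and 10.1% of all protein-coding genes. Over all 17274 protein-coding genes with a listed start, 33.2% and 33.4% had a start-site peak in hypoxic monoculture, 36.6% and 39.7% in normoxic co-culture, 41.5% and 39.7% in hypoxic co-culture and 23.1% and 19.6% in normoxic monoculture. The glial counts rest on 4 genes, S100b in hypoxic co-culture being the other one, and they were not tested. The part of remaining glioma cells in the contact-only set was not tested either.

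The balance between the sets differed by chromosome. Of all one-group regions 34.5% were contact-only, but on chromosome 10 the share was 51.7% (129 hypoxia-only and 138 contact-only regions), followed by 46.4% on chromosome 18 (98 and 85), 45.1% on chromosome 11 and 42.8% on chromosome 15. The lowest shares were 20.3% on chromosome 3, 23.1% on chromosome 19 and 25.4% on chromosome 1. Away from start sites the overall share was 28.9% and that of chromosome 10 was 45.1%, so it stood above the overall share there too. Chromosome 10 held 4.21% and 4.17% of all peaks in normoxic co-culture and 4.41% and 4.25% in hypoxic co-culture, against 3.66% and 3.85% in hypoxic monoculture and 2.96% and 2.80% in normoxic monoculture. Each co-culture list thus had a larger share of its peaks there than each monoculture list. This was not particular to chromosome 10, since the same order held on chromosomes 6, 11 and 15. On chromosome 11 the co-culture lists lay between 6.13% and 6.88% and the monoculture lists between 5.57% and 5.94%. The reverse order held on chromosome 8, by a narrow margin.

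**Figure D5:**
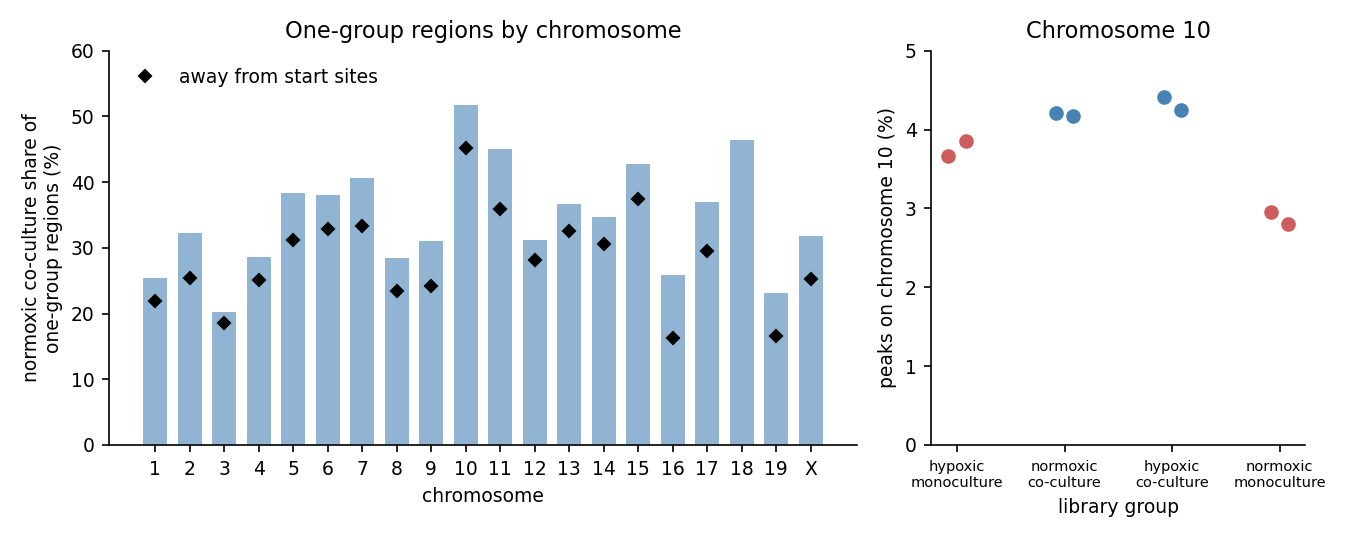
Left, contact-only regions as a percentage of all one-group regions (y axis) per chromosome (x axis); bars are all regions and diamonds those away from start sites, not given for chromosome 18, which has no listed starts. Right, the percentage of each library's peaks on chromosome 10 (y axis) by group (x axis, 2 points each); co-culture libraries lie between 4.17 and 4.41 and monoculture libraries between 2.80 and 3.85.

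Some genes collected several regions of one set within 10 kb, and these were picked after their counts were seen. Hypoxia-only regions were most numerous at Macrod2 (7 of 27 regions, a gene of 1998 kb), Arhgef3 (6 of 15) and Plcb4 (6 of 14), a guanine nucleotide exchange factor and a phospholipase C gene. Bcl2, the anti-apoptotic gene, had 5 of 10, and Pde4b, a cyclic AMP phosphodiesterase gene, 5 of 22. Contact-only regions were most numerous at Anks1b (5 of 11) and at Tcf4 (5 of 18), a transcription factor gene, followed by Ppm1h (4 of 20) and Sash1 (4 of 12). Of these 4 genes, Anks1b, Ppm1h and Sash1 lie on chromosome 10. The counts were not scaled to gene length, and a longer gene offers more room for regions.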

How the data were processed

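Peak lists of 8 ATAC-seq libraries were used, 1 per library and not pooled. Per the submitters' processing notes, Trimmomatic 0.36, HISAT2 2.1.0, Picard, SAMtools, deepTools and MACS2 were used on build mm10, and settings, filters and the shift for Tn5 are not given in the sources used here. The authors deposited for each peak a summit, a score, a −log10 q, a −log10 p and a fold enrichment (a ratio to the background of that library). These values belong to each list, so ranks were taken only within a list. Folds were not compared between lists.

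Overlapping peaks (at least 1 bp) of the 4 compared lists were merged. The number of fragments and the background behind each peak were solved from the deposited fold and −log10 p (tolerance 0.001), as a stand-in for depth. Genes and start sites come from RefSeq tables of GRCm38.p6, the assembly that mm10 is built from. Single values per library were compared with exact permutation tests, and region sets are counts without a test, since peak lists hold no counts to model. Merging, classes and solving were tested on simulated lists. The members and gene lists were chosen with earlier results of these data known. Named regions are the 8 with the highest minimum percentile in each one-group set and the 5 with the widest gap in each direction among shared regions. Named genes are up to 4 per list and set, plus Vegfa, Slc2a1, Bnip3, Ldha, Pdk1, Egln3, Spi1, Ptprc and Sox2, and others are named as members of counts. Of these, a region and a gene are not reported here. Alternatives were equal-number and thinned lists, a −log10 q of at least 5, summit windows of 250 bp each side, lists without peaks wider than 10 kb, other percentile gaps and leaving out each library. The work ran in Python 3.11.15 with pandas 2.3.3, scipy 1.17.1, numpy 2.4.6 and, for plots, matplotlib 3.10.9.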

Additional observations from a re-analysis of the deposited data

How the results depend on the processing

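Lists of equal number gave 2615 hypoxia-only and 2283 contact-only regions, 498 hypoxia-higher and 1005 contact-higher regions (the order of the last 2 turned), start-site shares of 2.33% (hypoxia-only) and 31.9% (contact-only), and contact-only shares of 61.9% on chromosome 10 and 55.6% on chromosome 18. A different cut was used for presence outside the comparison, with each of the 8 lists kept to its 9903 highest-ranked peaks. That cut reversed the difference in presence to 11.4 points (exact permutation p = 1). The cause was not tested. A −log10 q of at least 5 gave a contact-only start-site share of 29.5%, and regions away from start sites a chromosome 10 share of 45.1%. A gap of 10 points gave 1654 hypoxia-higher and 1531 contact-higher regions, and one of 30 points 277 and 240, by construction. Leaving out 1 library loosens the rule and gave 4681 to 7337 hypoxia-only, 2402 to 4291 contact-only, 1090 to 1827 hypoxia-higher and 1035 to 1438 contact-higher regions, and start-site shares of 2.44% to 5.86% and 14.9% to 31.5%. The start-site rank difference kept its sign in each case (−22.0 to −15.9 points). Same-numbered replicates did not deviate together (r = 0.0183 across 13248 regions), and with the replicate block the differences of 3551 peaks, −7.42 points in the share near gene ends and −15.4 points in presence each had an exact p of 0.5, the smallest that 2 pairs allow. Depth is known only through the lists, and a missing peak is one below the threshold. The start-site shares, start-site ranks and chromosome shares, with their alternatives, were chosen after the data were seen. The other 80 values of the main results kept their direction or size. Among them the difference in presence ranged from −22.3 to −8.49 points when 1 library was left out, with an exact p of 0.667 without either normoxic monoculture library.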
